A study of Homo sapiens with 9 samples.

Results

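The Hippo kinase core and its upstream regulators were examined at the RNA level as 10 genes, taken by name from the 36225 genes of the deposited table and not by any measured value. They are STK3 and STK4 (the kinases MST2 and MST1), SAV1, MOB1A and MOB1B, LATS1 and LATS2, NF2, WWC1 and PTPN14. RNA came from RBE, a human cell line of intrahepatic cholangiocarcinoma, which arises from bile duct epithelium within the liver. Lentivirus delivered either a scramble sequence (Ctrl in the labels, control below) or a hairpin that targets IDH1 (shIDH1) or JOSD2 (shJOSD2). Each group had 3 libraries, 9 in all. All groups therefore share the parental line and a lentiviral infection, and the labels show 1 hairpin name per target, without its sequence, the time after infection or any selection. The series title speaks of mutant IDH1, but the sample labels give no IDH1 genotype for the line. Separate infections are not stated for the replicates, so p-values reflect variation among these libraries, part or all of which may be technical.

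In the Hippo pathway, MST kinases bound to the scaffold SAV1 phosphorylate and activate the LATS kinases and their coactivators of the MOB1 family. Active LATS phosphorylates the transcriptional coactivators YAP and TAZ, encoded by YAP1 and WWTR1, which are then kept out of the nucleus or degraded. NF2 (merlin) and WWC1 (KIBRA) promote LATS activation at the cell membrane, and PTPN14 binds YAP and holds it in the cytoplasm. Since the pathway works through phosphorylation and protein location, transcript levels do not report its activity. LATS2 and NF2 are also known as YAP/TAZ target genes in other cells, part of a negative feedback loop. In bile duct epithelium the pathway is known for restraining growth and for setting cell identity.

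Library totals lay between 66036276 and 71612713 deposited counts. These seem to carry about 4 counts per sequenced fragment, though the counting step is not stated. If so, counting error is larger than the counts alone imply. IDH1 stood at 43.97 ± 4.44 FPKM in control and 12.6 ± 0.446 in shIDH1 libraries, and JOSD2 at 6.37 ± 0.260 in control and 0.795 ± 0.101 in shJOSD2 libraries (SD, n = 3 each), so each hairpin went with less of its own target. JOSD2 also stood at 1.68 ± 0.174 FPKM in shIDH1 libraries, and IDH1 at 34.5 ± 1.56 FPKM in shJOSD2 libraries, so neither hairpin group differed from control in its own target alone (all 4 log2 changes passed the edgeR test described below). Of 9 biliary epithelial markers 8 reached 1 FPKM, among them the keratin KRT19 at 408.3 to 599.04 FPKM over the 9 libraries, while the chloride channel gene CFTR stayed at or below 0.164. Their summed level was 1624 to 1884 FPKM in control, 2017 to 2047 with shIDH1 and 1542 to 1592 with shJOSD2. None of 5 endothelial markers reached 1 FPKM in any library, and they summed to 0.641 to 1.14 FPKM. Of 5 leukocyte markers 2 did, LYZ at up to 6.81 and PTPRC at up to 1.14 FPKM, and the summed level of the list was 3.67 to 7.28 FPKM in control, 4.09 to 5.26 with shIDH1 and 6.83 to 8.52 with shJOSD2. Of 5 hepatocyte markers 4 reached 1 FPKM, and the list summed to 8.89 to 55.1 FPKM in control libraries and to 7.90 to 12.6 in the knockdown libraries. Of 5 fibroblast markers 3 reached 1 FPKM and DCN was at 0 in 7 libraries, and their sum was 6.88 to 8.30 FPKM in control, 14.8 to 18.3 with shIDH1 and 15.7 to 16.2 with shJOSD2. The part of these marker differences in the results below was not tested. Fewer cells of a kind and less RNA per cell cannot be told apart in bulk RNA.

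All 10 genes were detected in every library and passed the filter on low counts. Levels are given in FPKM, that is fragments scaled to transcript length and to the library's total as deposited, which allows genes to be compared with one another. In control cells the order from high to low was MOB1A at 19.3 ± 3.19 FPKM, WWC1 at 14.1 ± 0.372, LATS2 at 11.96 ± 0.443, NF2 at 8.75 ± 1.19, PTPN14 at 8.56 ± 1.26, SAV1 at 6.35 ± 0.766, STK4 at 5.46 ± 0.648, LATS1 at 2.40 ± 0.119, MOB1B at 1.79 ± 0.269 and STK3 at 1.56 ± 0.0192 (SD, n = 3). The ranges of 3 neighbouring pairs overlapped in control: NF2 with PTPN14, SAV1 with STK4, and MOB1B with STK3. The order differed in the knockdown libraries. WWC1 at 31.4 ± 1.23 FPKM and LATS2 at 21.7 ± 0.871 stood first and second in shIDH1 cells, above MOB1A, whereas in shJOSD2 cells LATS2, at 8.54 ± 0.563 FPKM, stood below MOB1A, WWC1, PTPN14 and NF2. Neighbours that overlapped were STK4 with NF2 and STK3 with MOB1B in shIDH1 cells, and MOB1B with STK3 in shJOSD2 cells.

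**Figure D1:**
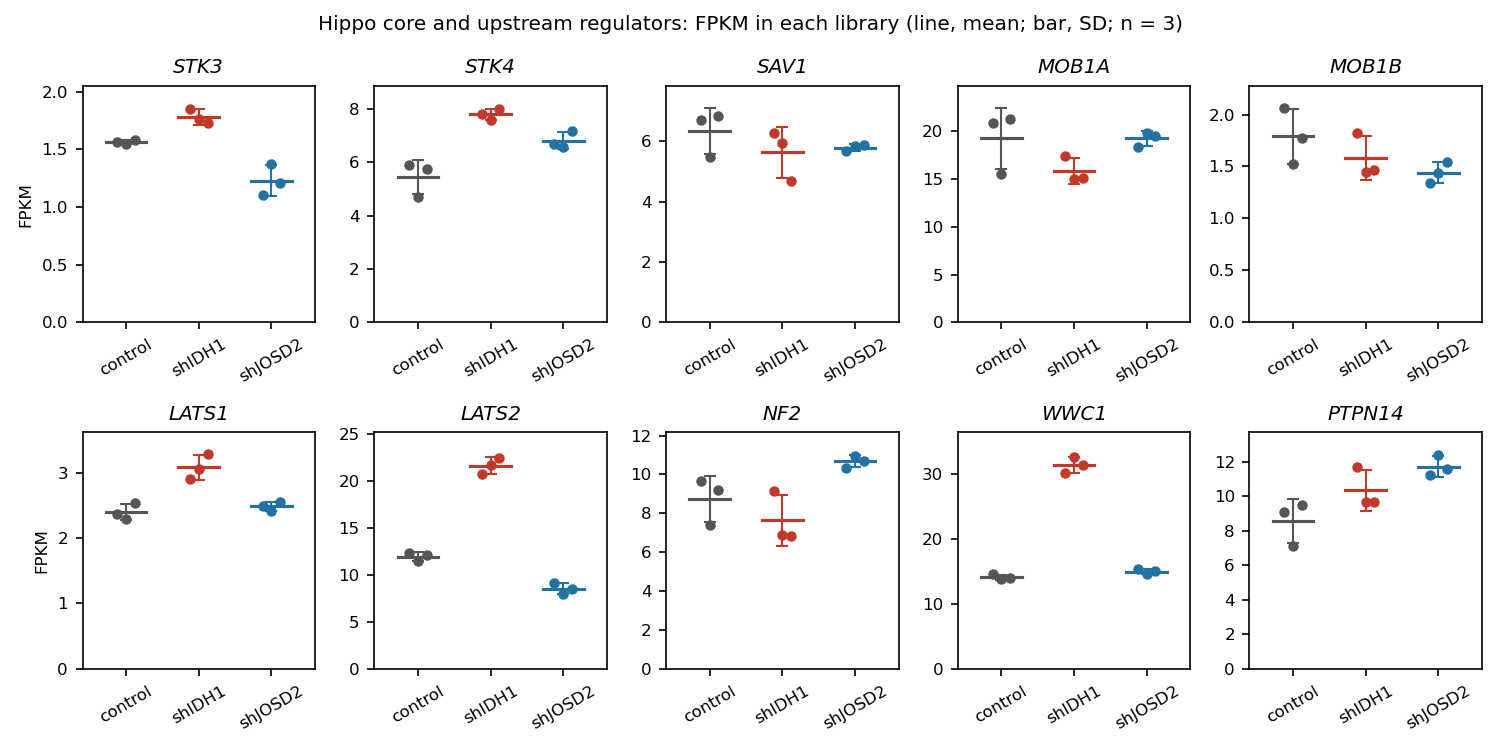
FPKM (y axis, linear from 0) of each of the 10 genes in the 3 control, 3 shIDH1 and 3 shJOSD2 libraries. Points are libraries, horizontal lines group means and vertical bars the SD. LATS2 and WWC1 show the widest separation of groups, and control replicate 2 is the lowest control library for all 10 genes, most clearly for MOB1A, NF2, PTPN14, SAV1 and STK4.

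The comparison of shIDH1 with control asks how the pathway's transcripts stand in shIDH1 cells. There JOSD2 fell about as much as IDH1 (log2 changes of -1.90 and -1.80), so the 2 losses cannot be told apart. WWC1, LATS2, STK4, LATS1 and PTPN14 rose and MOB1A fell, so 6 of the 10 genes passed edgeR's quasi-likelihood test at a Benjamini-Hochberg adjusted p under 0.05. Over all 21492 tested genes 50.1% were called, and 67.8% of the 12382 with a mean of at least 1 FPKM (30.7% higher and 37.0% lower), so a share of 6 in 10 is close to the background. The 5 that rose compare with 24.5% of tested genes called higher, and the 1 that fell with 25.6% called lower. The median log2 change of the 10 genes was 0.23, against 0.01 over all tested genes. For 6 of the 10 genes the FPKM ranges were separate between groups, against 56.9% of tested genes and 71.4% of those of at least 1 FPKM.

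The comparison of shJOSD2 with control asks the same of shJOSD2 cells, where JOSD2 changed by -3.09 and IDH1 by -0.50 on the log2 scale. LATS2, STK3 and MOB1B fell and PTPN14 rose, so 4 of the 10 genes passed, against 38.3% of tested genes and 52.7% of those with a mean of at least 1 FPKM. Called lower were 20.1% of tested genes and called higher 18.2%, or 31.8% and 20.9% of those of at least 1 FPKM. The median log2 change of the 10 genes was -0.12, against 0.03 over all tested genes, and the ranges were separate for 5 of 10, against 51.7% of tested genes and 63.1% of those of at least 1 FPKM. Both comparisons share the 3 control libraries. Scaling matters here: the TMM factors were 1.07 to 1.08 in shJOSD2 libraries and 0.942 to 0.985 in control, so fitted changes lie below the ratios of FPKM values. Without these factors the median of all genes moved to 0.18, and the calls over all genes went from 3907 higher and 4330 lower to 5638 higher and 2934 lower.

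Set directly against each other, the hairpin groups differed in 6 of the 10 genes, against 44.8% of tested genes and 62.9% of those of at least 1 FPKM. LATS2, WWC1, STK3, LATS1 and STK4 were higher in shIDH1 than in shJOSD2 cells and NF2 was lower, where 20.8% of tested genes were called higher and 24.0% lower (30.7% and 32.2% of those of at least 1 FPKM). The median log2 difference of the 10 genes was 0.31, against -0.06 over all tested genes. Ranges were separate for 7 of 10 genes, against 58.4% of tested genes and 73.9% of those of at least 1 FPKM. Without TMM factors the calls over all genes in this comparison went from 4479 higher and 5156 lower to 3316 higher and 6653 lower.

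**Figure D2:**
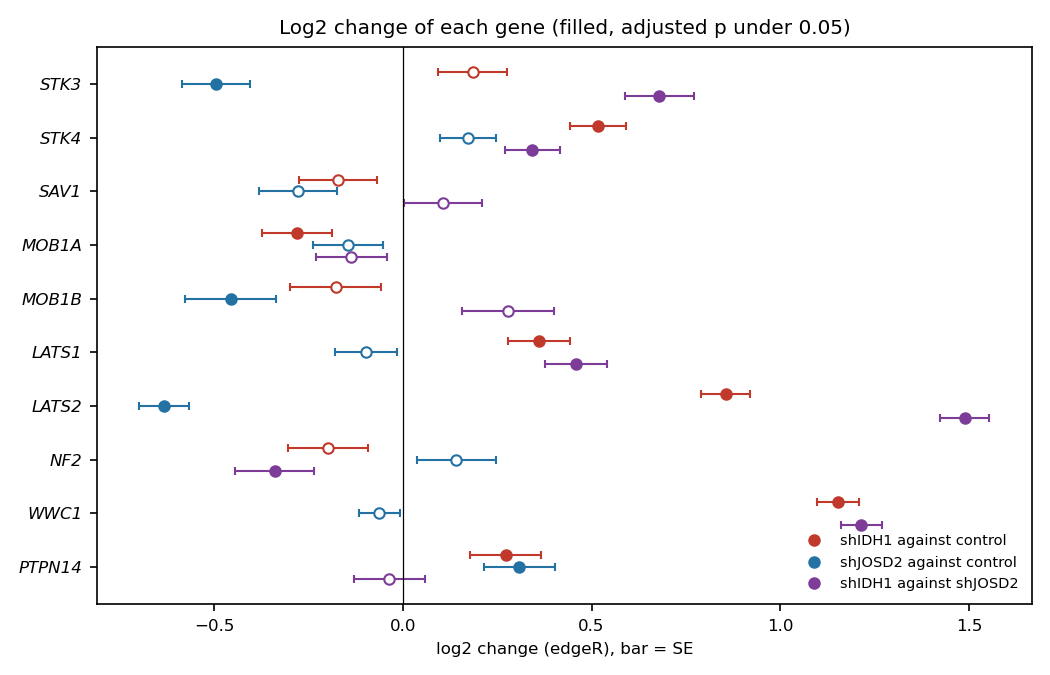
Log2 change (x axis) of each gene from the edgeR fit, with its SE as a bar, for shIDH1 against control, shJOSD2 against control and shIDH1 against shJOSD2. Filled points passed the test at an adjusted p under 0.05. LATS2 lies at 0.86 for shIDH1 and at -0.63 for shJOSD2, and WWC1 at 1.15 and -0.06.

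At the top of the core, the closely related MST kinases differed in their pattern. STK4 (ENSG00000101109; GRCh38 chromosome 20, 44966479 to 45080021, plus strand), which encodes MST1, stood at 5.91, 4.72 and 5.75 FPKM in control replicates 1, 2 and 3, at 7.80, 7.60 and 8.02 with shIDH1 and at 6.67, 6.58 and 7.19 with shJOSD2. Every knockdown library was above every control library, and the shIDH1 libraries were the highest. With shIDH1, STK4 rose by 0.52 ± 0.07 (log2, ± SE) (edgeR adjusted p = 7.79e-05). In shJOSD2 cells the change of 0.17 ± 0.07 did not pass (edgeR adjusted p = 0.0851), but it was called under 6 of 20 alternatives. These include the fit without TMM factors (0.33, edgeR adjusted p = 0.00699). The fit without control replicate 1 is another (0.23, edgeR adjusted p = 0.0452). The difference between the hairpins was 0.34 ± 0.07 (edgeR adjusted p = 0.00209), a call kept under 16 of 19 alternatives. Without TMM factors it was 0.19 and did not pass (edgeR adjusted p = 0.0770).

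STK3 (ENSG00000104375), which encodes MST2, stood at 1.56, 1.55 and 1.58 FPKM in control, at 1.86, 1.76 and 1.73 with shIDH1 and at 1.10, 1.37 and 1.21 with shJOSD2. The 3 groups did not overlap, with shJOSD2 lowest and shIDH1 highest. STK3 fell by 0.49 ± 0.09 (log2, ± SE) with shJOSD2 (edgeR adjusted p = 0.000934), a call kept under all 20 alternative settings, over which the change ran from -0.57 to -0.20. In shIDH1 cells the change was 0.18 ± 0.09 and did not pass (edgeR adjusted p = 0.112). It was called with upper-quartile scaling, at 0.30 (edgeR adjusted p = 0.0142). STK3 was 1.60-fold higher in shIDH1 than in shJOSD2 cells, a log2 difference of 0.68 ± 0.09 (edgeR adjusted p = 5.57e-05). These values rest on 1018 to 1688 deposited counts per library.

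SAV1 (ENSG00000151748; chromosome 14, 50632058 to 50668306, minus strand), the scaffold that joins MST to LATS, stood at 6.72, 5.46 and 6.85 FPKM in control, 6.29, 5.94 and 4.69 with shIDH1 and 5.66, 5.84 and 5.87 with shJOSD2. The 3 groups overlapped. The log2 changes were -0.17 ± 0.10 in shIDH1 cells (SE; edgeR adjusted p = 0.193) and -0.28 ± 0.10 in shJOSD2 cells (edgeR adjusted p = 0.0514). The value for shJOSD2 lay at the threshold: it was called under 6 of 20 alternatives, among them DESeq2 (-0.29, DESeq2 adjusted p = 0.0232), and without control replicate 2 (-0.36, edgeR adjusted p = 0.0203), shIDH1 replicate 1 (edgeR adjusted p = 0.0463) or shIDH1 replicate 3 (edgeR adjusted p = 0.0201).

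LATS2 was the member with the widest span between groups. LATS2 (ENSG00000150457; chromosome 13, 20973036 to 21061586, minus strand), one of the kinases that phosphorylate YAP and TAZ, stood at 12.3, 11.5 and 12.1 FPKM in control, 20.7, 21.8 and 22.5 with shIDH1 and 9.10, 7.98 and 8.55 with shJOSD2. The groups were far apart, with shIDH1 above control and shJOSD2 below it. LATS2 was 1.81-fold higher in shIDH1 than in control cells, a log2 change of 0.86 ± 0.06 (SE; edgeR adjusted p = 2.99e-07), and 1.55-fold lower in shJOSD2 cells, a log2 change of -0.63 ± 0.07 (edgeR adjusted p = 1.10e-05). The difference between the hairpins was 1.49 ± 0.07, or 2.81-fold (edgeR adjusted p = 6.73e-09). All 3 calls held under each alternative tried, with ranges of 0.81 to 0.97 for shIDH1, -0.68 to -0.44 for shJOSD2 and 1.25 to 1.54 between the hairpins.

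LATS1 (ENSG00000131023; chromosome 6, 149658153 to 149718101, minus strand), the other LATS kinase, stood at 2.38, 2.30 and 2.53 FPKM in control, 2.91, 3.07 and 3.29 with shIDH1 and 2.49, 2.41 and 2.56 with shJOSD2. The shIDH1 libraries lay above the 6 others, and those of control and shJOSD2 overlapped. LATS1 rose by 0.36 ± 0.08 (log2, ± SE) with shIDH1 (edgeR adjusted p = 0.00261) and was 0.46 ± 0.08 higher there than in shJOSD2 cells (edgeR adjusted p = 0.000545). Against control the shJOSD2 value was -0.10 ± 0.08 (edgeR adjusted p = 0.395), and its sign turned to 0.06 without TMM factors.

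MOB1A (ENSG00000114978; chromosome 2, 74152528 to 74178879, minus strand), a coactivator of LATS, stood at 20.9, 15.6 and 21.3 FPKM in control, 17.4, 15.1 and 15.1 with shIDH1 and 18.4, 19.8 and 19.6 with shJOSD2. Control replicate 2 lay among the shIDH1 libraries, so these groups overlapped. MOB1A fell by 0.28 ± 0.09 (log2, ± SE) with shIDH1 (edgeR adjusted p = 0.0243). This call was lost under 9 of 20 alternatives, among them without control replicate 1 (edgeR adjusted p = 0.0906), control replicate 3 (edgeR adjusted p = 0.123), shIDH1 replicate 2 (edgeR adjusted p = 0.0887) or shIDH1 replicate 3 (edgeR adjusted p = 0.0781). In shJOSD2 cells the change was -0.14 ± 0.09 (edgeR adjusted p = 0.258), and -0.26 without control replicate 2 (edgeR adjusted p = 0.0105).

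MOB1B (ENSG00000173542; chromosome 4, 70902326 to 70982242, plus strand), its paralogue, stood at 2.06, 1.53 and 1.78 FPKM in control, 1.83, 1.45 and 1.47 with shIDH1 and 1.34, 1.44 and 1.55 with shJOSD2. The groups overlapped in FPKM. MOB1B fell by 0.46 ± 0.12 (log2, ± SE) with shJOSD2 (edgeR adjusted p = 0.0101). The call held under 16 of 20 alternatives. Among the losses were the fit without TMM factors (-0.30, edgeR adjusted p = 0.0852) and limma on log2(FPKM + 1) (-0.19, limma adjusted p = 0.144). Without shJOSD2 replicate 1 it was also lost (-0.40, edgeR adjusted p = 0.0505). In shIDH1 cells the change was -0.18 ± 0.12 (edgeR adjusted p = 0.251).

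Since 3 of the steps are encoded by paralogous genes, the ratio of their FPKM values was taken within each library, a measure chosen after the values were seen. The LATS2 to LATS1 ratio was 5.18, 4.99 and 4.78 in control, 7.12, 7.10 and 6.82 with shIDH1 and 3.65, 3.30 and 3.34 with shJOSD2, so LATS2 was the more abundant LATS transcript in every library and the 3 groups did not overlap. Summed LATS1 and LATS2 stood at 14.4 ± 0.521 FPKM in control, 24.7 ± 1.06 with shIDH1 and 11.03 ± 0.606 with shJOSD2 (SD, n = 3 each). The STK4 to STK3 ratio was 3.79, 3.05 and 3.63 in control, 4.20, 4.32 and 4.65 with shIDH1 and 6.05, 4.80 and 5.93 with shJOSD2, again with no overlap. The MOB1A to MOB1B ratio was 10.1, 10.2 and 12.01 in control, 9.53, 10.4 and 10.3 with shIDH1 and 13.7, 13.8 and 12.7 with shJOSD2. For this pair the shJOSD2 libraries lay above the rest, and those of control and shIDH1 overlapped. Exact two-sided permutation tests gave p = 0.1 for each pair of groups whose ratios did not overlap, the smallest p that 3 against 3 libraries allow, and p = 0.6 for MOB1A to MOB1B between shIDH1 and control. No stretch of 50 bases was shared between the GENCODE 29 transcripts of STK3 and STK4, LATS1 and LATS2, or MOB1A and MOB1B.

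**Figure D3:**
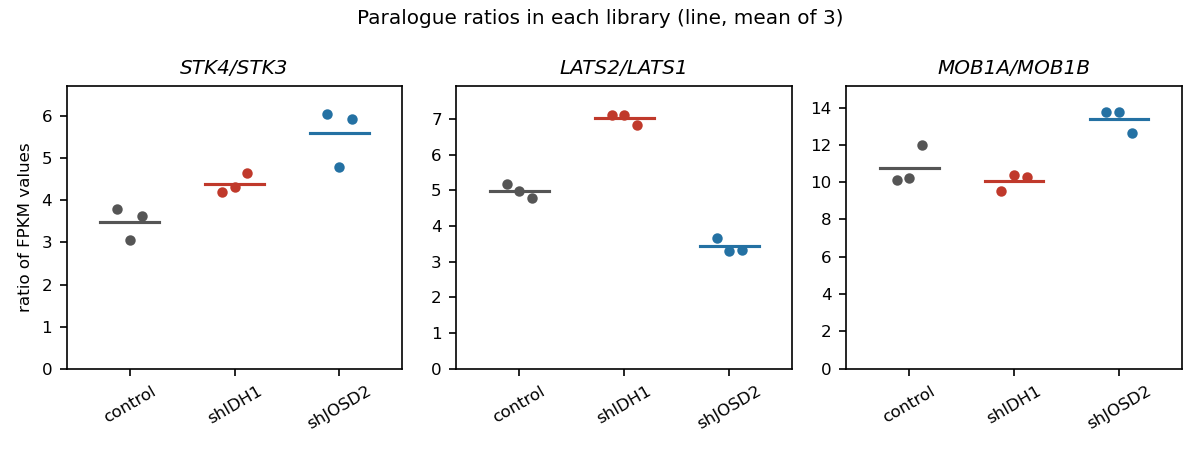
Ratio of FPKM values (y axis, linear from 0) of STK4 to STK3, LATS2 to LATS1 and MOB1A to MOB1B in each of 9 libraries. Points are libraries and lines group means. The LATS2 to LATS1 ratio lies at 6.82 to 7.12 with shIDH1 and at 3.30 to 3.65 with shJOSD2, on either side of control.

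Among the 10 genes, WWC1 had the largest change against control. Several genes of the wider list described further on changed more. WWC1 (ENSG00000113645; chromosome 5, 168291645 to 168472303, plus strand), the scaffold KIBRA, stood at 14.5, 13.9 and 13.9 FPKM in control, 30.2, 32.7 and 31.4 with shIDH1 and 15.3, 14.5 and 15.1 with shJOSD2. Every shIDH1 library was well above the 6 others. WWC1 was 2.22-fold higher in shIDH1 than in control cells, a log2 change of 1.15 ± 0.06 (SE; edgeR adjusted p = 7.73e-09), and 2.32-fold higher than in shJOSD2 cells (edgeR adjusted p = 8.23e-09). Both calls held under each alternative tried. Between shJOSD2 and control the log2 change was -0.06 ± 0.05 (edgeR adjusted p = 0.418), with a sign that turned to 0.09 without TMM factors.

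NF2 (ENSG00000186575; chromosome 22, 29603556 to 29698598, plus strand), which encodes merlin, stood at 9.66, 7.41 and 9.19 FPKM in control, 9.16, 6.90 and 6.84 with shIDH1 and 10.4, 10.97 and 10.7 with shJOSD2. The shJOSD2 libraries were the highest, and the other groups overlapped. The log2 change was -0.20 ± 0.11 in shIDH1 cells (SE; edgeR adjusted p = 0.143) and 0.14 ± 0.11 in shJOSD2 cells (edgeR adjusted p = 0.330). NF2 was 1.27-fold lower in shIDH1 than in shJOSD2 cells (-0.34 ± 0.11, edgeR adjusted p = 0.0193). That call held under 15 of 19 alternatives. Among the losses were the fits without shIDH1 replicate 2 (edgeR adjusted p = 0.0880), shIDH1 replicate 3 (edgeR adjusted p = 0.0830) or shJOSD2 replicate 2 (edgeR adjusted p = 0.0612). Against control, NF2 was called lower in shIDH1 cells without control replicate 2 (-0.29, edgeR adjusted p = 0.0390) or without shIDH1 replicate 1 (-0.34, edgeR adjusted p = 0.00822).

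PTPN14 (ENSG00000152104; chromosome 1, 214348700 to 214552449, minus strand), a phosphatase that binds YAP, was the one gene of the 10 called in the same direction against control in both knockdowns. It stood at 9.09, 7.12 and 9.48 FPKM in control, 11.7, 9.67 and 9.67 with shIDH1 and 11.2, 12.4 and 11.6 with shJOSD2. Each knockdown library was above each control library, though shIDH1 replicates 2 and 3 only just. PTPN14 rose by 0.27 ± 0.09 (log2, ± SE) with shIDH1 (edgeR adjusted p = 0.0288) and by 0.31 ± 0.09 in shJOSD2 cells (edgeR adjusted p = 0.0204), with a difference of -0.04 ± 0.09 between the hairpins (edgeR adjusted p = 0.795). The shIDH1 call held under 14 of 20 alternatives and the shJOSD2 call under 16 of 20. With all libraries kept, the shIDH1 call was lost with limma on log2(FPKM + 1) (0.25, limma adjusted p = 0.0734). It was also lost without a filter beyond 1 count (0.28, edgeR adjusted p = 0.0612). Both calls depended on single libraries as well. The shIDH1 call was lost without control replicate 2 (0.17, edgeR adjusted p = 0.110) or shIDH1 replicate 1 (0.19, edgeR adjusted p = 0.130), and the shJOSD2 call without control replicate 2 (0.21, edgeR adjusted p = 0.0706) or shJOSD2 replicate 2 (0.28, edgeR adjusted p = 0.0713).

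By FPKM, control replicate 2 was the lowest of the 3 control libraries for all 10 genes, and for 41.6% of all tested genes. On the TMM-scaled counts that the test uses it was the lowest for 7 of the 10, and for 34.4% of all tested genes. On the same scaled counts shIDH1 replicate 1 was the highest shIDH1 library for 6 of the 10, and for 38.2% of all tested genes. With control replicate 1 as the lone control, 5 of the 10 genes were called for shIDH1 and 3 for shJOSD2, against 34.8% and 22.9% of the 24341 genes tested in that setting. The lone library is assumed there to vary like the libraries of the other groups, which supply the spread.

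Sequences just upstream of the start sites are shown for LATS2 and WWC1, the members whose group means span at least 1 on the log2 scale. RefSeq (GRCh38.p14) gave 12 windows for 9 of the 10 genes. The 250 bases before each start were searched on both strands for the TEAD element GGAATG, through which YAP and TAZ reach DNA. They were also searched for TGANTCA (N, any base), a loose form of the AP-1 site that often accompanies that element. The 2 motifs do not overlap each other. In the lines below, 5′ to 3′ on the gene's strand, capitals would mark a match, and neither window holds one.
LATS2, chr13:21061587-21061836, minus strand: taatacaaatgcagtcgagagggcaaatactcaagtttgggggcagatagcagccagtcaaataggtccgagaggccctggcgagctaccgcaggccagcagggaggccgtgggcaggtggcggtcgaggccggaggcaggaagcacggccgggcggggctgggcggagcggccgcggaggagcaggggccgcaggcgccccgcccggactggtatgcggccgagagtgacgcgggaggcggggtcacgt
WWC1, chr5:168291395-168291644, plus strand: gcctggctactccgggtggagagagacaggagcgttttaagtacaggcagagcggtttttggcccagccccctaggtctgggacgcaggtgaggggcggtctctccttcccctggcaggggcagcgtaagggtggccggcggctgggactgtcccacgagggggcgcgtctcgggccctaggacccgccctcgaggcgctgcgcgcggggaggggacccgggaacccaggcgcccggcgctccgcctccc
The GC content was 69.6% for LATS2 and 72.4% for WWC1, against a median of 58.0% over all RefSeq windows. Among the members' 12 windows, 1 held the TEAD element and 2 the loose AP-1 pattern, against 11.9% and 6.57% of all 35116 windows. The TEAD element lay 200 bases before a RefSeq start of PTPN14, the gene called higher in both knockdowns, and is shown with its flanks and the element in capitals.
PTPN14, chr1:214551785-214551814, minus strand: cctcccgggccgCATTCCtccccgcccccg
The matches to the loose AP-1 pattern lay 44 bases before a RefSeq start of MOB1B and 245 bases before a RefSeq start of LATS1. Their central base was T in MOB1B and A in LATS1, where the AP-1 consensus has C or G. RefSeq starts can differ from the gene bounds of the deposited table given above. The MOB1B window runs to 70902368, past the gene's start at 70902326 in that table. The PTPN14 window, 214551603 to 214551852, lies within the bounds of its gene there. A match is a description of the letters, and these windows do not cover distal elements.

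LATS2 and WWC1 were also compared with the 12381 other tested genes of at least 1 FPKM, by the root mean square difference of their profiles over the 9 libraries (log2 CPM minus the control mean). The genes nearest to LATS2 were COG3 at a difference of 0.09, PIGS at 0.09 and NCOA3 at 0.10, against a median of 0.74 over all genes compared. COG3 is a subunit of the conserved oligomeric Golgi complex, PIGS acts in the attachment of GPI anchors and NCOA3 is a nuclear receptor coactivator. Mean FPKM of NCOA3 was 5.29 (control), 10.2 (shIDH1) and 3.62 (shJOSD2). Nearest to WWC1 were ARHGEF28 at 0.05, COL6A1 at 0.07 and AGRN at 0.07, against a median of 0.78. COL6A1 encodes a collagen VI chain and AGRN the matrix proteoglycan agrin, known in other tissues as a matrix signal that acts on YAP. Mean FPKM of AGRN was 51.3 (control), 111.6 (shIDH1) and 55.6 (shJOSD2). These genes were ranked over all 9 libraries, so their likeness is a description.

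**Figure D4:**
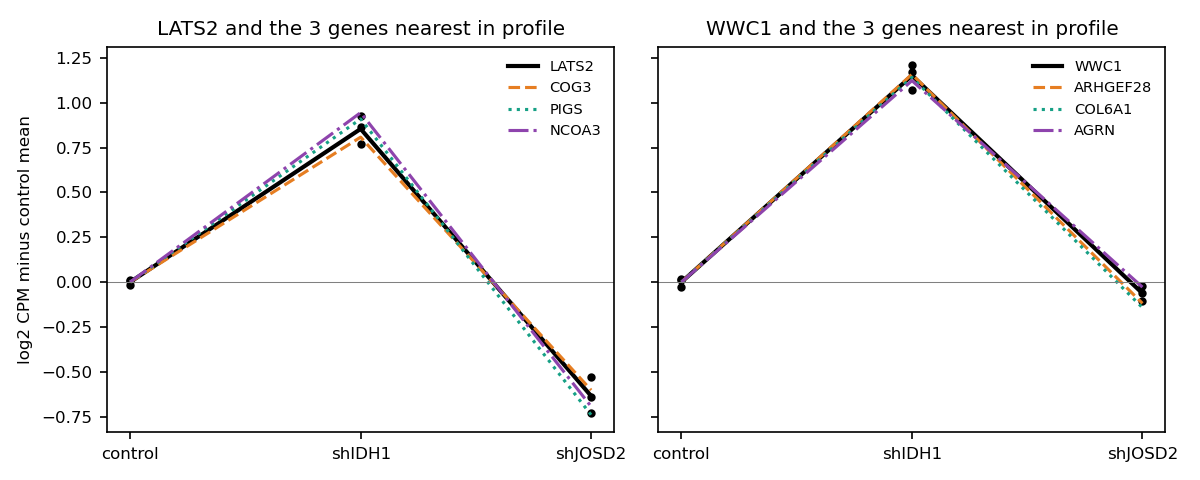
Log2 CPM minus the control mean (y axis) for LATS2 (left) and WWC1 (right), with points for the 9 libraries and a black line through group means, and coloured lines through the group means of the 3 tested genes nearest in profile. LATS2 lies above control in shIDH1 and below it in shJOSD2, and WWC1 lies near control in shJOSD2.

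YAP1 and WWTR1 encode the substrates of the core. YAP1 stood at 14.2 ± 1.03 FPKM in control, 15.1 ± 1.34 with shIDH1 and 13.96 ± 1.35 with shJOSD2, and WWTR1 at 26.9 ± 3.21, 27.1 ± 3.51 and 28.9 ± 0.700 (SD, n = 3 each). Neither gene passed the test against control: the edgeR adjusted p of YAP1 was 0.384 (shIDH1) and 0.115 (shJOSD2), and that of WWTR1 was 0.958 and 0.753. YAP1 was 0.26 ± 0.08 higher on the log2 scale in shIDH1 than in shJOSD2 cells (SE; edgeR adjusted p = 0.0180), although its FPKM ranges overlapped.

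A wider list of 75 other pathway genes, written with earlier results of these data known, was read from the same fit. In shIDH1 cells 31 rose, 22 fell and 22 did not pass, with a median log2 change of 0.14, against 0.01 over all tested genes. In shJOSD2 cells 16 rose, 25 fell and 34 did not pass, with a median of -0.03, against 0.03. The balance of directions depended on scaling. Without TMM factors 29 of the list were called higher and 16 lower in shJOSD2 cells, with limma on log2(FPKM + 1) 27 and 15, with limma on log2(FPKM + 0.1) 26 and 15, and with upper-quartile factors 21 and 22. For shIDH1, upper-quartile factors gave 40 higher and 16 lower in the list and 6176 higher and 4682 lower over all genes (5258 and 5511 with TMM), with a median over all genes of 0.12. The shares called were 70.7% and 54.7%, beside the 67.8% and 52.7% of all tested genes of at least 1 FPKM given above. By direction, 30.7% of those tested genes were called higher and 37.0% lower for shIDH1, and 20.9% and 31.8% for shJOSD2. The counts by role below are to be read beside these shares, and no role was tested against them. The changes named below are the largest in each role, direction and comparison among genes with a mean of at least 1 FPKM and ranges that did not overlap. Less abundant genes may have changed more, and a gene named for 1 knockdown may also have passed in the other.

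Of 10 kinases that act beside or above MST, 5 rose and 1 fell in shIDH1 cells and 4 rose and 2 fell in shJOSD2 cells. TNIK rose in both, by 0.996 ± 0.0790 and 0.56 ± 0.08 on the log2 scale, with edgeR adjusted p values of 4.54e-07 and 0.000128. MAP4K4, a kinase that can phosphorylate LATS, moved in opposite directions: it stood at 16.9 ± 0.405 FPKM in control, 30.2 ± 0.885 with shIDH1 and 13.2 ± 0.507 with shJOSD2 (SD, n = 3 each), with log2 changes of 0.83 ± 0.06 and -0.50 ± 0.06. That order of groups is the one seen for LATS2. In the wider list WWC2, FAT1, RASSF4, AJUBA, NEDD4L and MARK3 were also called higher with shIDH1 and lower with shJOSD2. MAP4K2 fell by 0.94 ± 0.09 in shIDH1 cells, and MINK1 rose by 0.54 ± 0.07 in shJOSD2 cells.

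Of 10 scaffolds and membrane adaptors, 6 rose and 2 fell in shIDH1 cells and 3 rose and 3 fell in shJOSD2 cells. PTPN21, the paralogue of PTPN14, rose by 1.54 ± 0.11 in shIDH1 cells, from 2.62 ± 0.423 to 7.65 ± 0.616 FPKM, and by 0.59 ± 0.11 in shJOSD2 cells. FRMD6, a FERM-domain protein related to merlin, rose by 1.24 ± 0.06 in shIDH1 cells, from 8.23 ± 0.547 to 19.4 ± 0.398 FPKM. The YAP-binding angiomotins did not move together in shIDH1 cells: AMOT fell by 0.65 ± 0.11, AMOTL1 rose by 0.37 ± 0.07 and AMOTL2 rose by 0.95 ± 0.07. In shJOSD2 cells AMOTL1 rose by 0.37 ± 0.07, and the values of AMOT and AMOTL2, 0.11 ± 0.11 and 0.02 ± 0.06, did not pass, although AMOTL2 was called without TMM factors at 0.18 (edgeR adjusted p = 0.0342) and with limma on log2(FPKM + 1) at 0.16 (limma adjusted p = 0.0306). AMOTL2, outside the naming rule, was added after its values were seen. WWC2, the paralogue of WWC1, rose by 0.44 ± 0.08 in shIDH1 cells and fell by 0.57 ± 0.08 in shJOSD2 cells.

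Of 10 cadherins and polarity proteins, 4 rose and 1 fell in shIDH1 cells and 2 rose and 2 fell in shJOSD2 cells. The giant cadherin gene FAT4 rose in both, from 0.823 ± 0.148 FPKM to 2.78 ± 0.240 and 1.56 ± 0.0526, with log2 changes of 1.76 ± 0.11 and 0.78 ± 0.11. MPP5, which encodes the polarity protein PALS1, rose by 0.58 ± 0.07 in shIDH1 cells, and DLG1 fell by 0.43 ± 0.06 in shJOSD2 cells. CRB3 fell by 0.38 ± 0.14 in shIDH1 cells and LLGL1 rose by 0.22 ± 0.08 in shJOSD2 cells, with edgeR adjusted p values of 0.0446 and 0.0442. Both calls lay at the threshold. That of CRB3 was lost without any 1 of 8 libraries (edgeR adjusted p = 0.0628 to 0.154), that is each except shIDH1 replicate 2. That of LLGL1 was lost without control replicate 2 or 3, shIDH1 replicate 3, or shJOSD2 replicate 1 or 3 (edgeR adjusted p = 0.0631 to 0.146).

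Among 6 RASSF genes, whose proteins bind MST through a SARAH domain, 2 rose and 3 fell in shIDH1 cells and 3 fell in shJOSD2 cells. RASSF1 fell in both, from 7.64 ± 0.819 FPKM to 3.97 ± 0.428 and 3.42 ± 0.362, with log2 changes of -0.95 ± 0.13 and -1.31 ± 0.13. RASSF5 fell by 1.20 ± 0.13 in shIDH1 cells, and RASSF3 fell by 0.79 ± 0.08 in shJOSD2 cells. RASSF4 rose by 0.63 ± 0.10 in shIDH1 cells and fell by 0.57 ± 0.10 in shJOSD2 cells. The largest rise in this role was that of RASSF6, by 2.14 ± 0.25 in shIDH1 cells, at a mean of 0.563 FPKM over the 9 libraries. Of 15 genes of the STRIPAK phosphatase complex and other inhibitors of MST, 5 rose and 6 fell in shIDH1 cells and 3 rose and 7 fell in shJOSD2 cells. The striatin genes STRN and STRN3 fell by 1.05 ± 0.08 and 0.84 ± 0.07 in shJOSD2 cells. STRIP2 fell by 1.44 ± 0.13 in shIDH1 cells and rose by 0.47 ± 0.12 in shJOSD2 cells, the second of which was not called against control replicate 1 alone (edgeR adjusted p = 0.196). SIKE1 rose by 1.01 ± 0.13 and the phosphatase scaffold gene PPP2R1A fell by 0.47 ± 0.06 in shIDH1 cells. DLG5 rose by 0.43 ± 0.05 and 0.57 ± 0.05 in the 2 knockdowns.

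Of the 3 LIM-domain genes whose proteins hold LATS back, AJUBA rose by 0.84 ± 0.10 in shIDH1 cells, from 43.5 ± 7.31 to 77.7 ± 4.37 FPKM, while the others fell, LIMD1 by 0.67 ± 0.07. AJUBA fell by 0.43 ± 0.10 in shJOSD2 cells, a call lost with limma on log2(FPKM + 1) (-0.26, limma adjusted p = 0.0620). Of 6 NDR kinases and other MOB proteins, 1 rose and 3 fell in shIDH1 cells, and 1 fell in shJOSD2 cells. MOB2 rose by 0.27 ± 0.09 in shIDH1 cells (edgeR adjusted p = 0.0324), a call lost without control replicate 1 or 3 or shIDH1 replicate 2 or 3 (edgeR adjusted p = 0.0688 to 0.157). MOB3B, at a mean of 0.989 FPKM over the 9 libraries, fell by 1.04 ± 0.15 in shIDH1 cells. Of 9 ubiquitin ligases and deubiquitinases of the pathway, 5 rose and 3 fell in shIDH1 cells and 3 rose and 4 fell in shJOSD2 cells. NEDD4 rose by 1.08 ± 0.08 and 0.36 ± 0.08, and WWP1 by 0.94 ± 0.06 and 0.80 ± 0.06. DCAF1, a ligase subunit that merlin is known to inhibit, fell by 0.96 ± 0.08 and 0.51 ± 0.08. BTRC, which encodes a receptor for phosphorylated YAP, fell by 0.62 ± 0.10 in shJOSD2 cells. It also fell by 0.35 ± 0.10 in shIDH1 cells, where its FPKM range overlapped that of control. FBXW11, its paralogue, fell by 0.26 ± 0.05 in shIDH1 and by 0.27 ± 0.05 in shJOSD2 cells. The last role held 6 genes, the cofactors YAP1 and WWTR1 with genes listed beside them. Of these, 2 rose and 1 fell in shIDH1 cells and 1 rose and 2 fell in shJOSD2 cells. The casein kinase gene CSNK1D rose by 0.88 ± 0.05 and 0.23 ± 0.05, and the 14-3-3 gene YWHAZ fell by 0.36 ± 0.06 and 0.42 ± 0.06. The smaller CSNK1D value was not called against control replicate 1 alone (edgeR adjusted p = 0.115). CSNK1E fell by 0.26 ± 0.06 in shJOSD2 cells, and its value without TMM factors was -0.10 (edgeR adjusted p = 0.174).

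**Figure D5:**
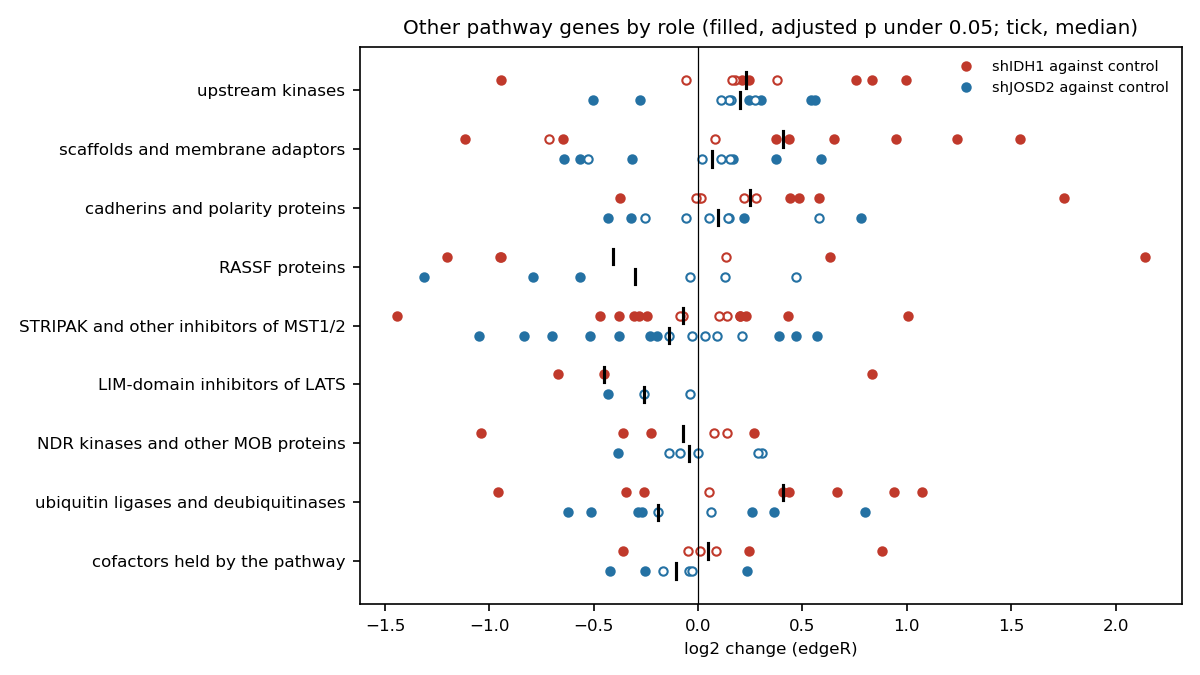
Log2 change (x axis) of 75 other pathway genes by role, for shIDH1 and shJOSD2 against control. Filled points passed the test at an adjusted p under 0.05 and black ticks are medians. In the role labelled cofactors held by the pathway, the cofactors are YAP1 and WWTR1. TP53BP2, CSNK1D, CSNK1E and YWHAZ are listed beside them. Members of most roles lie on both sides of 0, and the scaffolds and membrane adaptors have a median of 0.41 in shIDH1 and 0.07 in shJOSD2 cells.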

How the data were processed

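Poly(A) RNA was sequenced from 9 RBE libraries, strand-marked with dUTP and with molecular identifiers, per the labels' protocols. The submitters' processing notes name GRCh38, HISAT2 2.0.4, cutadapt 1.9, StringTie 1.3.4d and UMI-tools. What each did, the gene annotation and how reads were counted, including strand, is not given in the sources used here. The table deposited by the authors holds whole-number counts, not normalized, and FPKM values, scaled by length and library size, per the file headers.

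In edgeR 4.0.16 (R 4.3.3), counts of all 9 libraries entered a single fit with a mean per group. filterByExpr kept 21492 genes, scaling was by TMM, and quasi-likelihood F-tests were adjusted by Benjamini-Hochberg across them (threshold 0.05). Each SE was computed as the size of the log2 change divided by the root of F. This step was tested on simulated data. With counts divided by 4, libraries within a group differed by more than sampling noise (chi-square per degree of freedom 3.63 to 10.1), so each was counted once. Alternatives were DESeq2 1.42.0, limma 3.58.1 on log2 FPKM, other scalings and filters, divided counts, a replicate block, fits of 2 groups, each library left out, and a lone control.

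The members were taken by name and not by any measured value, and the other lists were written with earlier results of these data known. Named genes are the 10 members, IDH1, JOSD2, YAP1, WWTR1, up to 2 called genes per role, direction and comparison with control from the wider list (mean of at least 1 FPKM, separate ranges), and the 3 genes nearest in profile to members whose group means span at least 1. The wider list held 77 symbols for 75 genes, since 2 are aliases. Some of these genes, such as RASSF6 and MOB3B, are named outside that rule. A gene of the wider list that the rule names is not reported here.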

Additional observations from a re-analysis of the deposited data

How the results depend on the processing

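Over all alternatives the calls among the 10 genes numbered 4 to 6 for shIDH1 against control, 3 to 5 for shJOSD2 against control and 5 to 7 between the hairpins, and 524 of 590 recomputed log2 changes kept their direction and side of the threshold. Of the rest, 30 were no longer called, 19 were newly called and 17 turned sign, none of which was called in either setting. In shJOSD2 against control, without TMM factors and with limma on log2(FPKM + 1) and log2(FPKM + 0.1), MOB1A turned to 0.0072, 0.012 and 0.014, LATS1 to 0.057, 0.037 and 0.050, and WWC1 to 0.092, 0.080 and 0.085, and with upper-quartile factors WWC1 turned to 0.026. Between the hairpins, SAV1 turned to -0.046, -0.041 and -0.049 in the same 3 settings, and PTPN14 to 0.0017 in a fit of those 2 groups. With single libraries left out PTPN14 ran from -0.12 to 0.0072, above 0 without shIDH1 replicate 2 or 3 or shJOSD2 replicate 2. These settings scale the libraries differently or use fewer of them. Counts of called genes over the whole table ran from 8476 to 11178, 5569 to 8811 and 8430 to 10421 in the 3 comparisons. The replicate numbers are not stated to pair libraries, and deviations of same-numbered libraries correlated at -0.018 to 0.038. With a replicate block 10416, 7823 and 9296 genes were called, and 6, 4 and 6 of the 10 members. Under the block the calls of CRB3 (shIDH1, edgeR adjusted p = 0.0538) and LLGL1 (shJOSD2, edgeR adjusted p = 0.0687) were lost.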
